A study of Arabidopsis thaliana with 3 samples.

Results

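The 9 ATG8 genes of Arabidopsis thaliana, ATG8A to ATG8I, were followed across seedlings that overexpress, lack or normally express the transcription factor WRKY6. Members were found by gene symbol or locus code in the array's annotation. All 9 were found, each through 1 probe set that names it alone, among 22746 Arabidopsis probe sets. The family as a whole was chosen by measured values, namely the low ratios to wild type of some members on these same arrays. Those ratios, and other orders or ratios of the same signals, are a description and support nothing beyond themselves.

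The data were 3 Affymetrix arrays, 1 for each genotype. The line 35S:WRKY6-9, called 35S:WRKY6 below, carries WRKY6 under the constitutive 35S promoter and is a single overexpressing line. The mutant wrky6-1 is a WRKY6 knockout, and the wild type is of the Columbia ecotype. All were whole seedlings of 7 days, raised on MS agar at 22 °C under constant light after 2 days in the cold, and how many plants gave each RNA is not stated in the sources used here. Without replicates the design allows no test of any difference, and each fold is a ratio of 2 single arrays.

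ATG8 proteins are small ubiquitin-like proteins of autophagy, the process by which a cell encloses cytoplasm in a membrane and delivers it to the vacuole for breakdown. The protease ATG4 trims ATG8 at its C-terminus, the E1-like enzyme ATG7 and the E2-like enzyme ATG3 pass it on, and it is joined to the lipid phosphatidylethanolamine on the growing membrane with the help of the ATG12-ATG5-ATG16 complex. There it recruits cargo receptors. Yeast has a single ATG8, whereas plants have a family. In Arabidopsis ATG8A to ATG8D are close relatives, ATG8E to ATG8G form a second set, and ATG8H and ATG8I stand apart, being made with the C-terminal glycine already exposed. Autophagy genes are known to be induced by darkness and by sugar or nitrogen shortage.

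WRKY6 itself (AT1G62300) had a signal of 9245 in 35S:WRKY6, 12.1 in wrky6-1 and 322 in wild type, which matches the labels. The medians over all Arabidopsis probe sets were 169 in 35S:WRKY6, 173 in wrky6-1 and 182 in wild type. The ratio of 3' to 5' control probe sets, a measure of RNA integrity, was for actin 1.89 in 35S:WRKY6, 1.84 in wrky6-1 and 1.97 in wild type. It lay between 0.893 and 0.952 for GAPDH and between 0.994 and 1.17 for ubiquitin, in both cases lowest in 35S:WRKY6 and highest in wild type. Leaf markers with a named probe set (3 of 8) had summed signals of 52997 in 35S:WRKY6, 50911 in wrky6-1 and 48160 in wild type, but went both ways. PRK, a Calvin cycle kinase gene, had 13171 in 35S:WRKY6, 11651 in wrky6-1 and 8896 in wild type, while LHCB4.2, a light-harvesting gene, had 14778 in 35S:WRKY6, 14105 in wrky6-1 and 19527 in wild type. Root markers (3 of 10) had sums of 18057 in 35S:WRKY6, 18511 in wrky6-1 and 14519 in wild type, made up mostly of PYK10. Their median log2 ratio to wild type was 0.77 in 35S:WRKY6 and 0.13 in wrky6-1. In wrky6-1 it was 0.24 over the 2 root markers that passed the filter defined below. The root hair expansin gene EXPA7 had 243 in 35S:WRKY6, 113 in wrky6-1 and 128 in wild type, 2.14-fold higher in 35S:WRKY6 than in wrky6-1. EXPA7 passed that filter only through 35S:WRKY6, which fixed its direction. No marker was at 0 or under the floor defined below. The part of these differences in the ATG8 values was not tested. RNA came from whole seedlings, so fewer cells of a type and less transcript per cell cannot be told apart.

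Most ATG8 genes had their highest signal in wild type, an intermediate one in 35S:WRKY6 and their lowest in wrky6-1. ATG8A, ATG8C, ATG8D, ATG8E, ATG8F, ATG8H and ATG8I, which are 7 of the 9, had this order. It was the order of 22% of the 12505 probe sets that reached a signal of 175 on at least 1 array. ATG8B was highest in wild type but lowest in 35S:WRKY6, and ATG8G was highest in 35S:WRKY6. The wrky6-1 array gave the lowest signal for 8 of the 9 members, against 35.4% of the same probe sets. The wild-type array gave the highest for 8 of the 9, against 37.1%.

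**Figure D1:**
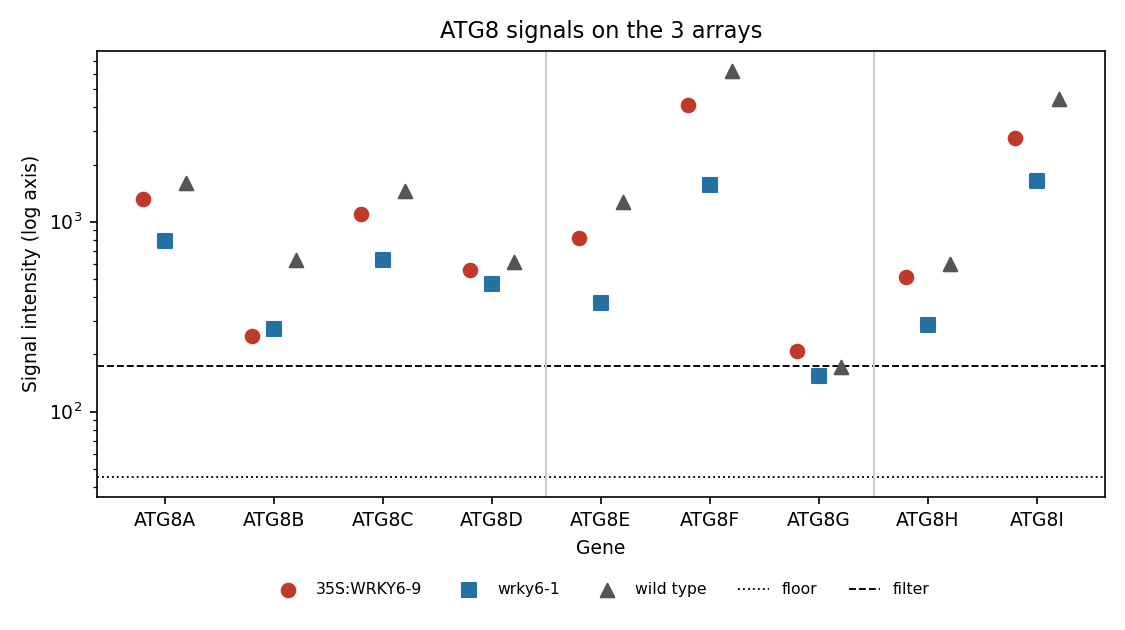
Signal intensity (log axis) of each ATG8 gene on the single 35S:WRKY6-9, wrky6-1 and wild-type arrays, with the floor of 45.5 and the filter of 175 as lines and the 3 sets of relatives parted by grey lines. The wrky6-1 square is the lowest point for every gene except ATG8B, and ATG8G lies close to the filter on all 3 arrays.

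Values for ratios were treated in the same way for all probe sets. A signal under 45.5, the 30th percentile of all Arabidopsis signals, was raised to that floor, which touched no ATG8 value. A probe set had to reach 175, the 50th percentile, on at least 1 of the 2 arrays compared to be called measured. All 9 members passed in both comparisons that include 35S:WRKY6, and 8 passed in wrky6-1 against wild type, where ATG8G (154 and 173) fell just short. Counts below cover all 9 members. The disagreement of probe sets for the same gene gave an SD of 0.25 (log2) for 1 probe set's ratio in 35S:WRKY6 against wild type (45 genes), 0.23 in wrky6-1 against wild type (47 genes) and 0.27 between the lines (46 genes). It covers error within an array, not the spread between plants, RNA preparations or hybridisations.

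In wrky6-1 all 9 members lay below wild type, and 7 of the 9 were at least 2-fold lower. Of the 12222 measured probe sets, 7.77% were at least 2-fold lower and 50.5% lay below 0. Among the 10559 of these with a mean signal in the range of the ATG8 members, 7.18% were at least 2-fold lower. The median log2 ratio of the 9 members was -1.21, and that of all measured probe sets was -0.01. No member was 2-fold higher, a size that 5.16% of measured probe sets reached.

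ATG8F had the lowest ratio to wild type of the family in wrky6-1. Its signal was 4100 in 35S:WRKY6, 1554 in wrky6-1 and 6212 in wild type. The knockout was thus 4.00-fold lower than wild type and kept 25.0% of its signal, while 35S:WRKY6 kept 66.0%. ATG8E, its close relative, behaved alike on these arrays, with signals of 821 in 35S:WRKY6, 374 in wrky6-1 and 1269 in wild type. It was 3.39-fold lower in wrky6-1 (log2 ratio -1.76) and 1.54-fold lower in 35S:WRKY6 (log2 ratio -0.63). The ratios of ATG8E and ATG8F to wild type differed by 0.24 in wrky6-1, less than the 0.32 (log2) SD of a difference between probe sets.

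ATG8G, the third of these relatives, did not share their values. It had 210 in 35S:WRKY6, 154 in wrky6-1 and 173 in wild type. Its log2 ratio was 0.28 in 35S:WRKY6, the only one above 0 in the family, and -0.17 in wrky6-1, the smallest in size. Both are near the SD of a single probe set, and the signal lies close to the filter. ATG8G passed the filter only through 35S:WRKY6, so its direction as a measured gene was fixed. In wrky6-1 the ratio of ATG8F was below that of ATG8G by 1.83, the widest gap within the family.

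Among ATG8A to ATG8D the members differed in which line was lowest. ATG8A had 1319 in 35S:WRKY6, 789 in wrky6-1 and 1599 in wild type, so the knockout was 2.03-fold lower and the overexpressor 1.21-fold lower than wild type. ATG8C had 1097 in 35S:WRKY6, 625 in wrky6-1 and 1452 in wild type, a log2 ratio of -1.22 in the knockout and of -0.40 in the overexpressor. For both genes the overexpressor lay much nearer to wild type than the knockout did.

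ATG8B was the exception of this set. It had 249 in 35S:WRKY6, 272 in wrky6-1 and 629 in wild type. Both lines lay well under wild type, and between themselves they differed by a log2 ratio of -0.13, within the SD of 1 probe set. Against wild type ATG8B was 2.53-fold lower in the overexpressor and 2.31-fold lower in the knockout, and it was the only member at least 2-fold lower in both lines.

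ATG8D had the flattest values of the members above the filter on every array. Its signal was 554 in 35S:WRKY6, 470 in wrky6-1 and 615 in wild type. Its ratios to wild type (log2), -0.15 for the overexpressor and -0.39 for the knockout, were both under 2 SD of a probe set. In wrky6-1 its ratio was above those of ATG8A, ATG8B and ATG8C by 0.63, 0.82 and 0.83.

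ATG8H and ATG8I, the members made without a C-terminal extension, both lay under wild type in both lines. ATG8I had 2749 in 35S:WRKY6, 1645 in wrky6-1 and 4421 in wild type, 2.69-fold lower in the knockout and 1.61-fold lower in the overexpressor. ATG8H had 509 in 35S:WRKY6, 284 in wrky6-1 and 597 in wild type, a log2 ratio of -1.07 in the knockout and -0.23 in the overexpressor. The array annotation calls ATG8I by the older symbol APG8H, so it was identified by its locus, AT3G15580, and ATG8H by AT3G06420. ATG8A and ATG8H were, of the 7, the members nearest the 2-fold mark in wrky6-1, with ATG8A at a log2 ratio of -1.02. They were at -0.945 and -0.995 when arrays were scaled to their medians, which left 5 members past 2-fold, and ATG8A also missed it at -0.996 after quantile scaling.

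**Figure D2:**
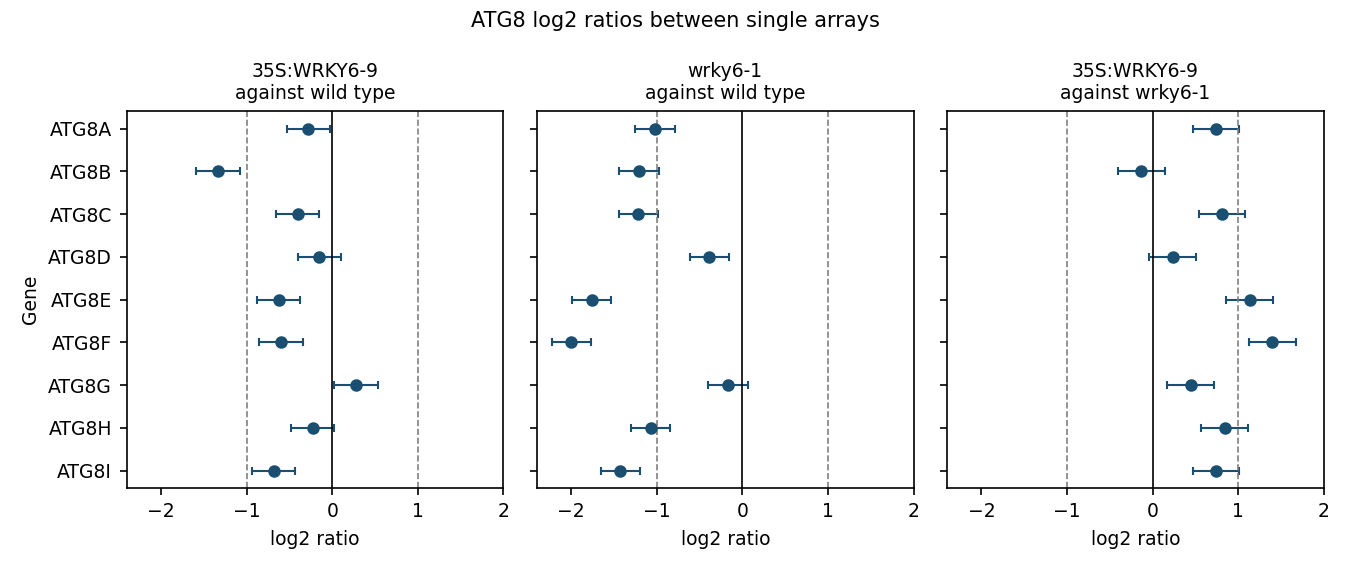
Log2 ratio of each ATG8 gene in the 3 comparisons of single arrays, with bars of 1 SD from probe sets of the same gene (error within an array only) and dashed lines at 2-fold. In wrky6-1 against wild type 7 genes lie past the left dashed line, while in 35S:WRKY6-9 against wild type only ATG8B does.

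In 35S:WRKY6 the family lay closer to wild type. Of the 9 members 8 lay below 0, against 51.9% of 12139 measured probe sets, and ATG8B alone was at least 2-fold lower, against 5.61%. None was 2-fold higher, against 3.79%. The median of the 9 was a log2 ratio of -0.40, and that of all measured probe sets was -0.02. Ratios lower than 0 by more than 2 SD of a probe set were found for ATG8B, ATG8E, ATG8F and ATG8I, which are 4 of 9, and for 17.6% of measured probe sets. In wrky6-1 the same count was 7 of 9, against 23.1%. Both comparisons use the same wild-type array, so a deviation of that array would enter both.

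The 2 lines can be compared without the wild-type array. This comparison is still not free of how the family was chosen, because the signals of both lines are part of the ratios to wild type. ATG8 signals were higher in 35S:WRKY6 than in wrky6-1 for 8 of the 9 members, against 49.1% of 12000 measured probe sets, with ATG8B the exception. ATG8F was 2.64-fold higher (log2 ratio 1.40) and ATG8E 2.20-fold higher (log2 ratio 1.13). These 2 of 9 were the ones past 2-fold, against 4.53% of measured probe sets, and none was 2-fold lower, against 4.65%. ATG8A, ATG8C, ATG8H and ATG8I were closely grouped, with log2 ratios of 0.74, 0.81, 0.84 and 0.74. With ATG8E and ATG8F they made 6 of 9 above 0 by more than 2 SD of a probe set, against 13.2%. ATG8G and ATG8D, at 0.45 and 0.24, were not. ATG8G, among the 8 higher, passed the filter only through 35S:WRKY6, which fixed its direction as a measured gene. The median of the 9 was 0.74, beside -0.01 for all measured probe sets.

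**Figure D3:**
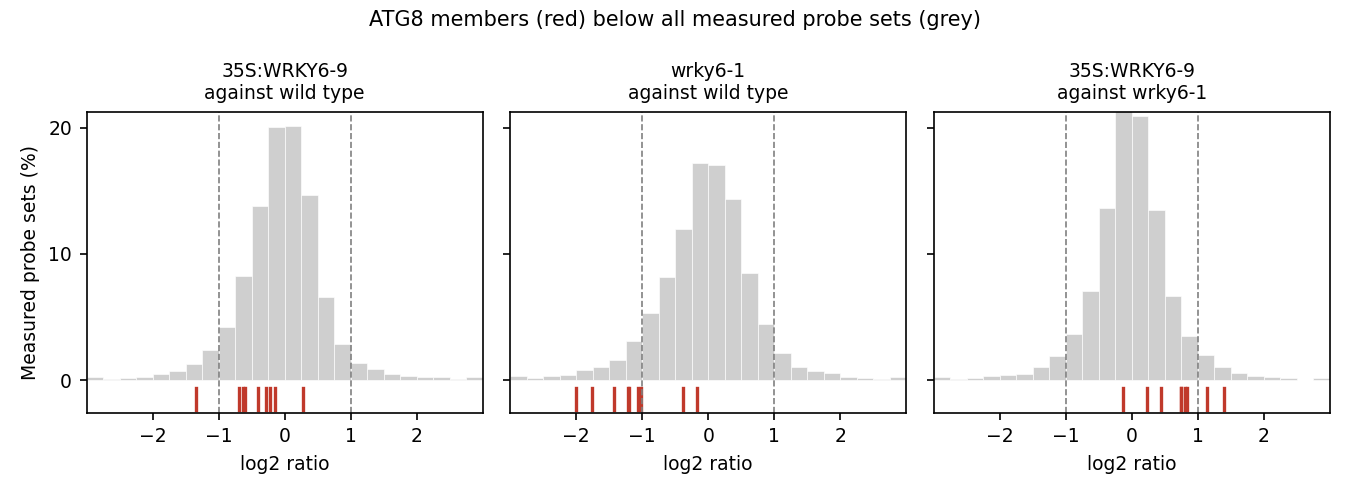
Share of measured probe sets in each interval of log2 ratio (grey, in percent, values beyond 3 in size placed in the end intervals) in the 3 comparisons, with a red tick under the axis for each ATG8 gene and dashed lines at 2-fold. The 9 ticks lie left of 0 in wrky6-1 against wild type, and 8 of them lie right of 0 in 35S:WRKY6-9 against wrky6-1.

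The members were not equally spread in the 3 comparisons. Of their 36 pairs, 19 differed in their wrky6-1 ratio by more than 2 SD of a difference between probe sets, 9 did so in their 35S:WRKY6 ratio and 9 between the lines. The share among pairs of other probe sets was not computed, so these counts do not set the family apart from other genes. The sets of relatives differed in median too. In wrky6-1 the median log2 ratio was -1.76 for ATG8E to ATG8G, -1.11 for ATG8A to ATG8D and -1.25 for ATG8H and ATG8I. In 35S:WRKY6 it was -0.60 for ATG8E to ATG8G, -0.34 for ATG8A to ATG8D and -0.46 for ATG8H and ATG8I. The first set nonetheless held both the lowest and the highest ratios in wrky6-1, those of ATG8F and ATG8G.

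The rest of the autophagy machinery was covered thinly. Of 42 listed genes, 12 had a named probe set, and 8 were measured in each comparison. By the brightest probe set of each gene, none of the 8 was at least 2-fold higher or lower in any comparison. For 8 genes this is near the shares of all measured probe sets. These were 7.77% lower and 5.16% higher in wrky6-1, 5.61% and 3.79% in 35S:WRKY6, and 4.65% and 4.53% between the lines. A dimmer probe set of ATG1C was past 2-fold in wrky6-1, as given below. In wrky6-1 against wild type 7 of the 8 lay below 0, beside 50.5% of measured probe sets. Among the 7, the direction of ATG1C was fixed because it passed the filter only through wild type. ATG1A, ATG4B and VPS38 lay within 1 SD of a probe set from 0. The median of the 8 was -0.27, with -0.54 under a 70th-percentile filter and -0.42 over all 12. In 35S:WRKY6 4 of the 8 lay below 0, beside 51.9%, and the median was -0.07, turning to 0.03 with arrays scaled to their medians and to -0.22 over all 12. Between the lines the median of the 8 was 0.36, and 0.16 over all 12.

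In wrky6-1 the 3 conjugation genes with a probe set lay nearer to wild type than most ATG8 genes. The ATG8 family was chosen for low ratios of some members, so this contrast was partly set by the choice. In 35S:WRKY6 the median log2 ratio of the 3 was -0.29, beside -0.40 for ATG8. ATG3, the E2-like enzyme, had 930 in 35S:WRKY6, 702 in wrky6-1 and 919 in wild type, log2 ratios to wild type of 0.02 for the overexpressor and -0.39 for the knockout. ATG16, the partner of ATG5, had 700 in 35S:WRKY6, 534 in wrky6-1 and 856 in wild type, -0.68 in the knockout. ATG4B, one of the proteases that trim ATG8, had 271 in 35S:WRKY6, 319 in wrky6-1 and 339 in wild type. It is the third and last conjugation gene with a probe set, out of 9 listed, and its name was added once its value was known.

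The 3 measured initiation genes all lay below wild type in wrky6-1, as did 50.5% of measured probe sets. By the brightest probe set none was 2-fold lower, beside 7.77%. ATG1A, an ATG1 kinase gene outside the naming rule, had 539 in 35S:WRKY6, 429 in wrky6-1 and 479 in wild type. Its log2 ratio was -0.16 in the knockout, within the SD of 1 probe set. ATG101, a partner of ATG13 in the ATG1 kinase complex, had 383 in 35S:WRKY6, 285 in wrky6-1 and 477 in wild type, a log2 ratio of -0.74 in the knockout. ATG1C, one of the kinases, had 2 probe sets that disagreed in size, the brighter at -0.65 (174 in wrky6-1 against 273 in wild type) and the dimmer at -1.22 (81.4 against 190). In this comparison both passed the filter only through wild type, the brighter narrowly, which fixed their direction. VPS38, a subunit of the phosphatidylinositol 3-kinase complex, had 183 in 35S:WRKY6, 186 in wrky6-1 and 204 in wild type, ratios near 0 in both lines. SH3P2, a protein of growing autophagosome membranes, went the other way, with 248 in 35S:WRKY6, 318 in wrky6-1 and 201 in wild type. It was the only gene with a probe set out of 9 in the list of receptors and adaptors, and none of the 10 genes for ATG2, ATG9 and the ATG18 proteins was analysed here.

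**Figure D4:**
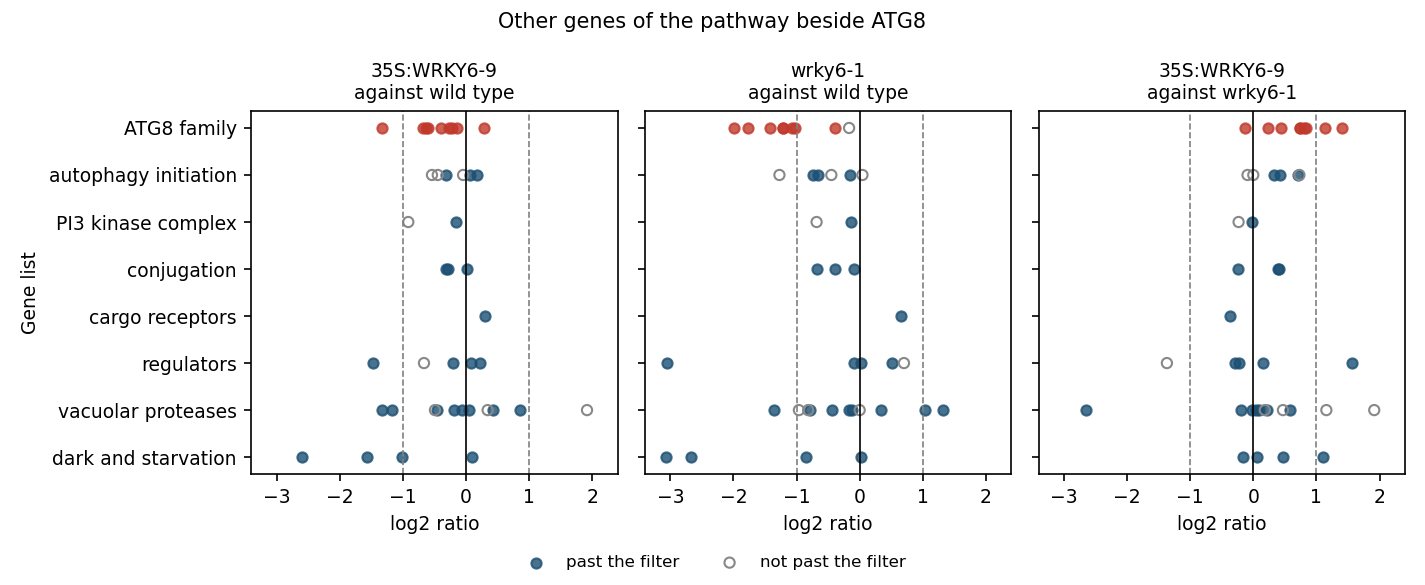
Log2 ratio of each gene with a named probe set in the ATG8 family (red) and in 7 lists of other genes (blue), 1 panel for each comparison of single arrays, with open circles for genes under the filter and dashed lines at 2-fold. Among the initiation, kinase complex, conjugation and receptor lists no filled point lies past 2-fold, whereas regulators, vacuolar proteases and the dark and starvation list each hold some that do.

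Of the 4 measured regulators of autophagy, 1 was at least 2-fold lower in both lines. Of all measured probe sets, 5.61% were so in 35S:WRKY6 and 7.77% in wrky6-1. The same gene, AKINBETA1, was at least 2-fold higher in 35S:WRKY6 than in wrky6-1, beside 4.53%. AKINBETA1, a β subunit of SnRK1, the kinase that senses low energy and promotes autophagy, had 1123 in 35S:WRKY6, 378 in wrky6-1 and 3126 in wild type. Its order over the 3 arrays was that of most ATG8 genes, with log2 ratios of -1.48 for the overexpressor and -3.05 for the knockout to wild type, and 1.57 between the lines. The other 3 measured regulators, of 11 listed, passed 2-fold in no comparison, like most measured probe sets. They are named although outside the naming rule. In wrky6-1 AKINBETA2 lay above wild type (884 against 619) at a log2 ratio of 0.51, more than 2 SD of a probe set. RAPTOR1B and AKINBETA3 were at 0.02 and -0.08.

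Genes of starvation and darkness, a condition in which ATG8 genes are known to be induced, gave 4 probe sets of 13 listed genes. Of these, 3 were at least 2-fold lower in 35S:WRKY6 and 2 in wrky6-1, beside 5.61% and 7.77% of measured probe sets. IVD, an enzyme of leucine breakdown, had 878 in 35S:WRKY6, 410 in wrky6-1 and 2614 in wild type, again the order of most ATG8 genes. ETFQO, which passes electrons from amino acid breakdown to respiration, had 298 in 35S:WRKY6, 333 in wrky6-1 and 602 in wild type, the order of ATG8B. MCCA, of leucine breakdown too, was at log2 ratios of -2.59 for the overexpressor and -3.07 for the knockout. D2HGDH, the remaining gene with a probe set, was near wild type, with 326 in 35S:WRKY6, 312 in wrky6-1 and 307 in wild type. It is named here although outside the naming rule. IVD, ETFQO and MCCA had also been seen to be low before they were listed.

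Vacuolar proteases, which degrade what autophagy delivers, had 11 probe sets of 15 listed genes and went both ways. Of the 8 measured in each comparison with wild type, 2 were at least 2-fold lower in 35S:WRKY6 (5.61% of measured probe sets) and none higher (3.79%), while in wrky6-1 1 was lower (7.77%) and 2 were higher (5.16%). CATHB1, a cathepsin B-like protease, had 109 in 35S:WRKY6, 95.8 in wrky6-1 and 244 in wild type. It passed the filter only through wild type, which fixed its direction. BETA-VPE, a vacuolar processing enzyme known from seeds, had 273 in 35S:WRKY6, 311 in wrky6-1 and 151 in wild type, high in both lines. Here the filter was passed only through the lines, which again fixed the direction. PASPA2, an aspartic protease, had 201 in 35S:WRKY6, 1260 in wrky6-1 and 505 in wild type, the reverse of the order between the lines seen in 8 ATG8 genes.

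The genes with a symbol most like the family were sought over the 2 ratios to wild type. Likeness was the distance in log2 units from the median ratios of the 8 members measured in both comparisons, -0.50 in 35S:WRKY6 and -1.21 in wrky6-1, among 936 probe sets at or above the filter in wild type. The nearest was VPS20.1, a subunit of the endosomal sorting complex ESCRT-III, at a distance of 0.04 with signals of 246 in 35S:WRKY6, 146 in wrky6-1 and 347 in wild type. Next came the β-tubulin gene TUB1 at 0.06, with 970 in 35S:WRKY6, 623 in wrky6-1 and 1380 in wild type. TGH, MYBC1, DRT100 and WLIM1 followed at 0.11 to 0.18. The search required the filter in wild type only. This fixed the direction of VPS20.1 in wrky6-1 and of TGH in both lines (134 in 35S:WRKY6 and 91.4 in wrky6-1). With 3 arrays such likeness rests on 2 ratios that share the wild-type array.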

How the data were processed

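The deposited linear signal intensity of each probe set was used, with 1 column per array. Per the submitters' processing notes GCOS 1.0 and MAS5 were used, with no step assigned to either. The deposited intensity columns had 2% trimmed means of 499.8 in 35S:WRKY6, 500.1 in wrky6-1 and 500.0 in wild type, so no further scaling was applied. Per the labels' protocols 8 µg of total RNA was labelled per array. Precision is limited by the number of arrays.

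Of 22810 probe sets, 64 controls were left out. Names came from the platform annotation, updated by Entrez identifier to TAIR10.1, and 13484 probe sets naming 1 gene had a locus. The other 8730 unlisted and 503 several-gene probe sets were not named. The build behind the array's annotation is not given in the sources used here, so TAIR10.1 served only for names and gene order, no coordinates are printed, and no sequences were analysed. For other genes the brightest probe set was used. Log2 ratios were taken after the floor, with Python 3.11.15, pandas 2.3.3 and statsmodels 0.14.6, and the counting was tested on simulated data. Named genes were all members, WRKY6, each listed gene at least 2-fold different while measured (or else the 2 largest ratios of its list), and the 6 nearest patterns. Members, lists and rule were chosen with earlier results of these data known. Alternatives changed the scaling, floor, filter and choice of probe set.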

Additional observations from a re-analysis of the deposited data

How the results depend on the processing

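No paired analysis was possible because each genotype has 1 array, and for the same reason no array could be left out. Under 11 alternatives, 1 of them added after seeing the data (only members past the filter), the 292 recomputed ATG8 ratios all stayed within 1 SD of a probe set. Most of these could not move. Only the changes of scaling, and the 50th-percentile floor for ATG8G, altered a member's ratio. The other alternatives left each ratio as it was or dropped the member. The ATG8 median ranged from -0.50 to -0.30 in 35S:WRKY6 against wild type, from -1.21 to -1.13 in wrky6-1 against wild type and from 0.73 to 0.81 between the lines, and the members at least 2-fold lower in wrky6-1 from 5 (median scaling) to 7. Median scaling shifted all measured probe sets by 0.11 in 35S:WRKY6, where the ATG8 median less that of all measured probe sets was then -0.39. The 70th-percentile filter removed ATG8B, and so left 0 members lower in 35S:WRKY6 than in wrky6-1. For the other autophagy genes, the median in 35S:WRKY6 turned to 0.0323 under median scaling, the median in wrky6-1 was -0.54 under the 70th-percentile filter with fewer genes tested, and 1 gene was 2-fold lower in wrky6-1 with no filter, where the median between the lines was 0.165. Floors did not touch ATG8 except at the 50th percentile, which is above ATG8G in wrky6-1 and wild type.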

Other observations

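The genes next to the ATG8 genes on the chromosome, by the gene order of TAIR10.1, numbered 18, of which 7 had a probe set naming them alone. Of the 5 measured against wild type, 2 were at least 2-fold lower in 35S:WRKY6 and 1 in wrky6-1, beside 5.61% and 7.77% of all measured probe sets, and none was higher. AT4G04630, beside ATG8B, had a signal of 154 in 35S:WRKY6, 106 in wrky6-1 and 493 in wild type. It passed the filter only through wild type, which fixed its direction, and it is the 1 gene lower in wrky6-1. AT3G15570, beside ATG8I, had 281 in 35S:WRKY6, 507 in wrky6-1 and 712 in wild type, and so was lowest in 35S:WRKY6, where ATG8I was not. Beside ATG8E, AT2G45180 had 16378 in 35S:WRKY6, 14013 in wrky6-1 and 15060 in wild type, close to each other. The values of these 3 were known when they were named.

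PASPA2 (AT1G62290), the vacuolar aspartic protease gene that was high in wrky6-1 and low in 35S:WRKY6, is the gene just before WRKY6 (AT1G62300) on chromosome 1 in that gene order. The difference between the lines was a log2 ratio of -2.65, against 7.67 for WRKY6. The second is a lower bound because WRKY6 lay under the floor in wrky6-1. DELTA-VPE, another vacuolar processing enzyme gene, had 172 in 35S:WRKY6, 36.2 in wrky6-1 and 32.3 in wild type, just short of the filter on its highest array.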
